A study of Mus musculus with 2 samples.

Results

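SR proteins and heterogeneous nuclear ribonucleoproteins (hnRNPs) are the main families of RNA-binding proteins that decide which exons of a pre-mRNA are joined. Their genes were described in total RNA of hindbrain from newborn mice. Members were the protein-coding genes whose symbol is Srsf followed by a number or starts with Hnrnp, which gave 31 of the 43346 Ensembl genes in the tables, 11 Srsf and 20 Hnrnp. They had 212 transcripts, and 2 pseudogenes with such symbols were left out.

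The series holds 2 libraries of a single group, hindbrain of mice of the strain B6NTac;B6NCrl/Lap at postnatal age 0 days, both sexes pooled and healthy. Per the labels, replicate 1 came from 15 mice and replicate 2 from a pool whose size is not stated. The libraries were stranded pairs of 101 nt from RNA over 200 nt after ribosomal RNA depletion, with spike-ins. Both name the same donor, so part of their spread may be technical. An exact sign-flip test over 2 libraries reaches p = 0.5 at best, and no test was made. Spread is given as the SD over both libraries (n = 2).

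An SR protein carries RNA recognition motifs and a tail rich in arginine and serine. It binds enhancer sequences in exons and brings in the spliceosome, and its tail is phosphorylated by the SRPK and CLK kinases. The hnRNPs coat nascent RNA and many of them hold exons out of the mRNA, so the families often act on the same exons in opposite ways. In the developing brain they set the splice forms of many neuronal genes. Many SR and hnRNP genes also limit their own mRNA in mammals. Too much protein favours splicing of an exon that carries an early stop codon, or keeps an intron, and transcripts with an early stop are destroyed by nonsense-mediated decay. The annotation marks decay and retained-intron transcripts by type. The report follows the level of each gene and then the part of it in all forms not typed protein-coding. That class is wider, since it also holds processed transcripts, and whether its members limit their own gene was not tested.

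Stop-bearing exons of this kind are shown for 5 members, because a decay transcript of each stops within them. Such exons of Hnrnpl-213 (70 nt) and Srsf11-212 (117 nt) are not shown. Hnrnpl-213 held 0.29% and 0.76% of its gene in replicates 1 and 2, and Srsf11-212 held 0% in both. Each run starts at the first base of an exon that the gene's main coding transcript, the one with the most counts, skips and ends with the stop codon, in capitals, that closes its reading frame. The runs are in GENCODE transcripts of build mm10, 5′ to 3′ on the gene's strand.
Srsf3, chr17:29039454-29039487, plus strand: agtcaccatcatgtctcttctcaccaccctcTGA
Srsf4, chr4:131884276-131884390, plus strand: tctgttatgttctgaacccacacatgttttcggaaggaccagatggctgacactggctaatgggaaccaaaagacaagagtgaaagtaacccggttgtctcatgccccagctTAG
Srsf6, chr2:162932815-162932966, plus strand: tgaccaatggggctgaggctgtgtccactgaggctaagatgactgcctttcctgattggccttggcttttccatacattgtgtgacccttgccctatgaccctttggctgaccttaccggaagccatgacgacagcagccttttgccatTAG
Srsf11, chr3:158024209-158024231, minus strand: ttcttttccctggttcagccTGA
Hnrnpll, chr17:80044976-80045022, minus strand: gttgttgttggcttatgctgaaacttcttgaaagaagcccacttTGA
The full exons are 456 nt in Srsf3, 207 nt in Srsf4, 268 nt in Srsf6, 109 nt in Srsf11 and 83 nt in Hnrnpll. The stop codon is TGA in Srsf3, Srsf11 and Hnrnpll and TAG in Srsf4 and Srsf6. It begins at base 32 of the exon in Srsf3, base 113 in Srsf4, base 150 in Srsf6, base 21 in Srsf11 and base 45 in Hnrnpll. In each of the 5 the last exon junction lies far downstream of the stop, by 548 nt in Srsf3, 617 nt in Srsf4, 534 nt in Srsf6, 456 nt in Srsf11 and 807 nt in Hnrnpll.

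The tables held 54313140 estimated fragment counts for replicate 1 and 77142270 for replicate 2, of which the members took 166172 (0.310% of counts on genes) and 221053 (0.290%). Levels between genes are compared in TPM, counts per transcript length scaled to a fixed sum over all RNAs. Protein-coding genes of the nuclear genome held 28.1% of that sum in replicate 1 and 19.3% in replicate 2, so the TPM of most members is lower in replicate 2 and its SD contains this shared factor. Hindbrain markers were present, with 9 of 9 at 1 TPM or more in both libraries and a sum of 158 and 132 TPM in replicates 1 and 2. Of 5 forebrain markers only Neurod6 reached 1 TPM in both, with a sum of 7.93 and 4.33 TPM. Blood markers summed to 406 and 408 TPM and cartilage markers to 8.83 and 4.13 TPM. Muscle markers were higher in replicate 1, at 47.5 TPM against 5.14 TPM in replicate 2. On scaled counts the median log2 ratio of replicate 2 over replicate 1 was 0.35 over blood, −0.46 over cartilage and −2.65 over muscle markers. It was −0.04 over hindbrain and −0.25 over forebrain markers. The part of these tissues in the differences between libraries was not tested.

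All 31 members reached 1 TPM in both libraries, against 54.6% of the 21461 nuclear protein-coding genes. Their sum was 1038 and 696 TPM in replicates 1 and 2, or 0.370% and 0.362% of all coding TPM. The 11 SR genes held 386 and 266 TPM of it and the 20 hnRNP genes 652 and 430 TPM, so the SR share was 37.7 ± 0.717% and the hnRNP share 62.3 ± 0.717% (SD, n = 2). The median SR gene had 27.8 and 16.7 TPM, the median hnRNP gene 18.1 and 12.4 TPM, and the median detected coding gene 9.52 and 6.57 TPM. The SR median was above the hnRNP median by 0.52 ± 0.13 on the log2(TPM + 0.1) scale. Counted over protein-coding transcripts alone, a setting chosen after the data were seen, the difference was 0.22 ± 0.07, above 0 in both libraries. In tissue RNA, fewer cells that express a gene and less RNA per cell cannot be told apart.

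**Figure D1:**
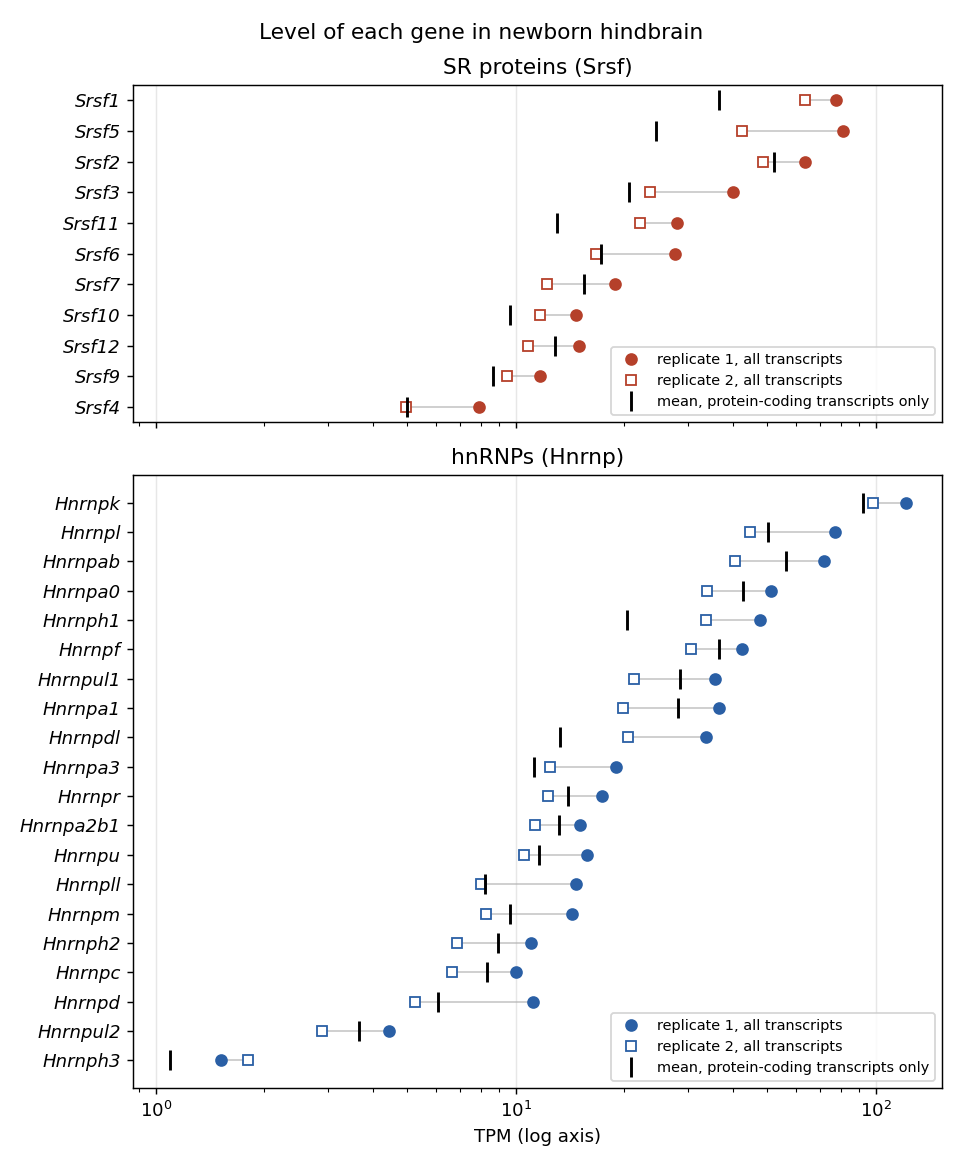
Level of each SR gene (upper panel) and hnRNP gene (lower panel) in TPM on a log axis, with a filled circle for replicate 1, an open square for replicate 2 and a black bar for the mean over protein-coding transcripts only. Hnrnpk is highest and Hnrnph3 lowest in both libraries, and the black bars of Srsf1, Srsf5, Srsf11, Hnrnph1 and Hnrnpdl lie left of both symbols of the gene, as do those of Srsf3, Srsf9, Srsf10, Hnrnpk, Hnrnpa3 and Hnrnph3.

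Among the classical SR proteins, Srsf1 led. Srsf1, the founding member, which also acts in mRNA translation, had 77.3 TPM in replicate 1 and 63.4 in replicate 2 (70.4 ± 9.82). Srsf5, a regulator with a pair of RNA recognition motifs, had 81.3 and 42.6 TPM and was the highest SR gene in replicate 1 only. Srsf2, which marks nuclear speckles, had 63.5 and 48.5 TPM, below Srsf1 in both libraries. The place of Srsf5 among these 3 genes changed between libraries and is not fixed. Srsf3, the smallest SR protein and an adaptor for mRNA export, had 40 and 23.6 TPM. Srsf6, a splicing activator related to Srsf4 and Srsf5, had 27.8 and 16.7 TPM. Srsf7, an SR protein with a zinc knuckle, had 18.8 and 12.2 TPM from 1 transcript. Srsf9, whose serine and arginine tail is short, had 11.7 and 9.44 TPM. Srsf4, which has a long tail of this kind, was lowest with 7.90 and 4.96 TPM, below Srsf9 in both libraries. The 8 classical genes together held 31.7 ± 0.116% of the members' TPM.

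Of the 3 SR-like genes, Srsf11 was higher than the other two in both libraries, and those did not separate. Srsf11, a spliceosome-associated protein, had 28.0 and 22.1 TPM. Srsf10, which becomes a general splicing repressor when it loses its phosphates, had 14.7 and 11.7 TPM. Srsf12, its close relative, was lowest by the mean with 14.9 and 10.8 TPM, and it was above Srsf10 in replicate 1 and below it in replicate 2.

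Hnrnpk was the highest of all members. Hnrnpk, which binds runs of cytosine through KH domains, had 121 and 98.5 TPM (109.8 ± 16.0) and held 12.9 ± 1.75% of the members' TPM. No other member came within its range in either library. Gm7964, annotated as a processed pseudogene, matches 1378 nt of an Hnrnpk transcript at 99.2% identity. It was given 1564 and 1785 counts beside 16618 and 22363 for Hnrnpk, so the split between them is uncertain. The 5 highest members, Hnrnpk, Srsf1, Srsf5, Hnrnpl and Hnrnpab, held 41.5 ± 0.231% of the members' TPM.

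In the A/B subfamily, whose members often silence exons, the levels spanned several fold. Hnrnpab, a factor of transcription and RNA transport, was highest with 71.9 and 40.7 TPM. Hnrnpa0, a single-exon gene, had 51.3 and 34.1 TPM. Hnrnpa1, the best studied exon silencer, had 36.6 and 19.9 TPM, and Hnrnpa3, a relative of Hnrnpa2b1, had 18.9 and 12.4 TPM. Hnrnpa2b1, which carries mRNAs into neuronal and oligodendrocyte processes, was lowest with 15.1 and 11.3 TPM. Its order below Hnrnpa3 held in both libraries although the values lie close.

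In the F/H subfamily, which binds runs of guanine, Hnrnph1 had 47.7 and 33.7 TPM and Hnrnpf 42.5 and 30.6 TPM. Hnrnph2, the X-linked copy, had 11.02 and 6.88 TPM. Hnrnph3 was the lowest of all 31 members with 1.52 and 1.80 TPM, from 126 and 377 counts. The fold between Hnrnph1 and Hnrnph3 was far larger than the spread between libraries. Within the D pair, Hnrnpdl had 33.8 and 20.5 TPM. Hnrnpd, which binds AU-rich elements and speeds mRNA decay, had 11.1 and 5.26 TPM.

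The L pair split in the same way. Hnrnpl, which binds CA repeats, had 76.9 and 44.7 TPM. Hnrnpll, known for CD45 splicing in T cells, had 14.7 and 8.0 TPM. In the U subfamily, Hnrnpul1, which acts at DNA breaks, had 35.7 and 21.4 TPM and Hnrnpul2 was lowest with 4.44 and 2.89 TPM. Hnrnpu, a nuclear scaffold protein that tethers RNA to chromatin, lay between them with 15.7 and 10.6 TPM. Hnrnpr, which in mouse motor neurons binds mRNA of axons, had 17.3 and 12.3 TPM. Hnrnpm, which acts on splicing through GU-rich sites, had 14.3 and 8.29 TPM, and its exons overlap those of a neighbouring gene over 1149 nt, so its level is uncertain. Hnrnpc, which forms a tetramer on uridine tracts, had 10.03 and 6.65 TPM.

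Decay transcripts are annotated for many of the members. A transcript typed for nonsense-mediated decay was listed for 14 of 31 members, 7 of 11 SR and 7 of 20 hnRNP genes, against 20.2% of detected coding genes. At least 1 transcript of any type other than protein-coding was listed for 20 of 31, 9 of 11 SR and 11 of 20 hnRNP genes, against 59.1%. The second share of all members, 64.5%, is near its background. The other 11 members Srsf7, Srsf12, Hnrnpa0, Hnrnpa1, Hnrnpa2b1, Hnrnpab, Hnrnpc, Hnrnpf, Hnrnph2, Hnrnpul1 and Hnrnpul2 had only protein-coding transcripts listed. For these genes the lack of other forms was set by the listed transcripts and was not measured. Types come from a later GENCODE release than the tables.

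SR genes had more of their level in such forms. For the 9 SR genes with non-coding or decay transcripts, the median share of gene TPM in them was 27.6% and 28.9% in replicates 1 and 2. The median was 19.3% and 20.7% for the 11 hnRNP genes and 8.91% and 10.98% for 6925 detected coding genes with such transcripts. The SR median was above the hnRNP median by 8.30 ± 0.078 percentage points (SD, n = 2). This SD does not show how far single genes moved, because different genes stood at the medians. In replicate 1 these were Srsf10 and Hnrnpm, and in replicate 2 Srsf9 and Hnrnph3. Srsf9 had 9.87% in replicate 1 and 28.95% in replicate 2, and Hnrnph3 had 49.7% and 20.7%. Summed over whole families, the share was 33.9 ± 1.48% of SR TPM, 14.1 ± 2.34% of hnRNP TPM and 9.89 ± 0.565% of the TPM of all detected coding genes. By counts, which give short transcripts less weight, it was 18.5 ± 2.41% for SR genes, 7.29 ± 0.510% for hnRNP genes and 4.94 ± 0.481% for coding genes. Genes with no such transcript listed enter these sums only through the total. The median number of such transcripts listed was 4 per SR gene, 1.5 per hnRNP gene and 1 per detected coding gene. The part of these numbers in the differences between the groups was not tested. The SR median by counts was above the hnRNP median by 2.14 points in replicate 1 and 14.0 in replicate 2, so the size of that difference is not fixed on this scale. With members at 5 TPM or more it was 13.0 points of TPM, and it was 4.92 points with the Hnrnpd transcript of unknown type counted as non-coding.

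**Figure D2:**
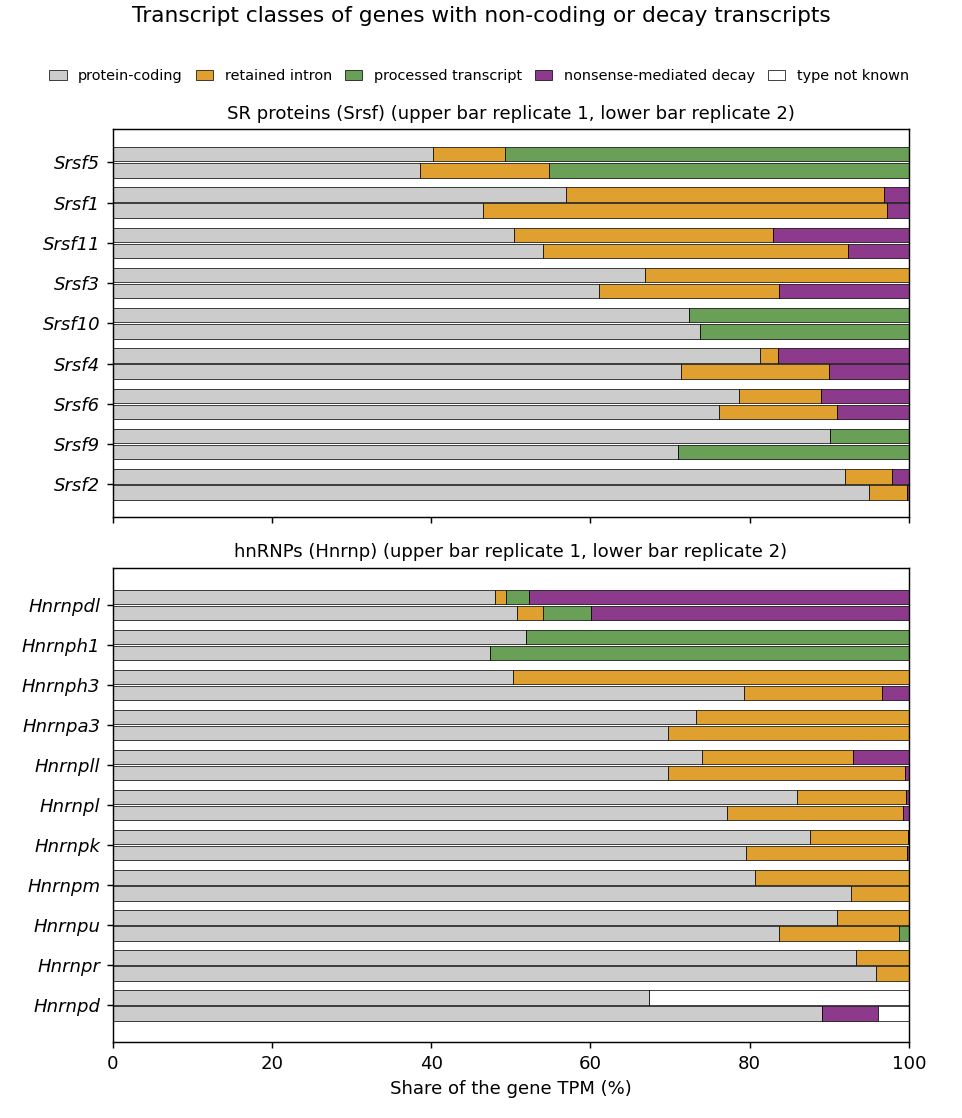
Share of the gene's TPM in each transcript class for the 9 SR genes (upper panel) and 11 hnRNP genes (lower panel) with non-coding or decay transcripts, with the upper bar for replicate 1 and the lower for replicate 2. Transcripts typed as retained intron make up most of the non-coding part of Srsf1, processed transcripts that of Srsf5 and Hnrnph1, and decay transcripts that of Hnrnpdl.

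At a share of at least 50% in both libraries stood 1 of the 20 members, Srsf5, against 7.29% of 6925 coding genes. By counts 0 of 20 did, against 3.81%. Neither count sets the families apart from other genes at this limit. In Srsf5 the share was 59.8% and 61.4% of TPM and 41.1% and 52.5% of counts in replicates 1 and 2. Its largest transcript was Srsf5-211, a processed transcript of 538 nt, with 49.3% and 43.7% of TPM but 13.3% and 10.6% of counts. Srsf5-212, which keeps intron 5 (1229 nt), had 7.91% and 13.6% of TPM and 22.9% and 33.0% of counts. The main coding form Srsf5-201 had 23.8% and 29.6% of TPM.

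Srsf1 came near the limit, with 43.1% and 53.4% of TPM in non-coding forms, but 9.71% and 14.9% of counts. Most of it was Srsf1-203, a retained-intron transcript of 759 nt with 26.6 and 29.1 TPM, the highest of the gene in both libraries (34.4% and 45.9%). It keeps no whole intron of the main coding transcript. The coding transcripts of Srsf1 summed to 44.0 and 29.5 TPM, and by that sum Srsf1 ranked 6 of the 31 members instead of 2. Srsf5 ranked 10 instead of 3 by coding transcripts (32.7 and 16.4 TPM), while Srsf2 ranked 3 instead of 6 (58.4 and 46.1 TPM). Hnrnpk stayed at rank 1 with 106 and 78.4 TPM.

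Srsf11 had 49.6% and 45.9% in such forms, spread over retained-intron transcripts Srsf11-203 (13.0% and 21.9%) and Srsf11-208 (16.9% and 15.2%) and decay transcripts. Neither Srsf11-203 nor Srsf11-208 keeps a whole intron of the main coding transcript. Hnrnph1 had 48.1% and 52.6%, all in processed transcripts, of which it has 15 in the tables. They changed places between libraries: Hnrnph1-218 had 4.71% in replicate 1 and 15.9% in replicate 2, and Hnrnph1-215 had 8.66% and 1.91%. The sum over them differed less, relative to its size, than either of these parts.

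**Figure D3:**
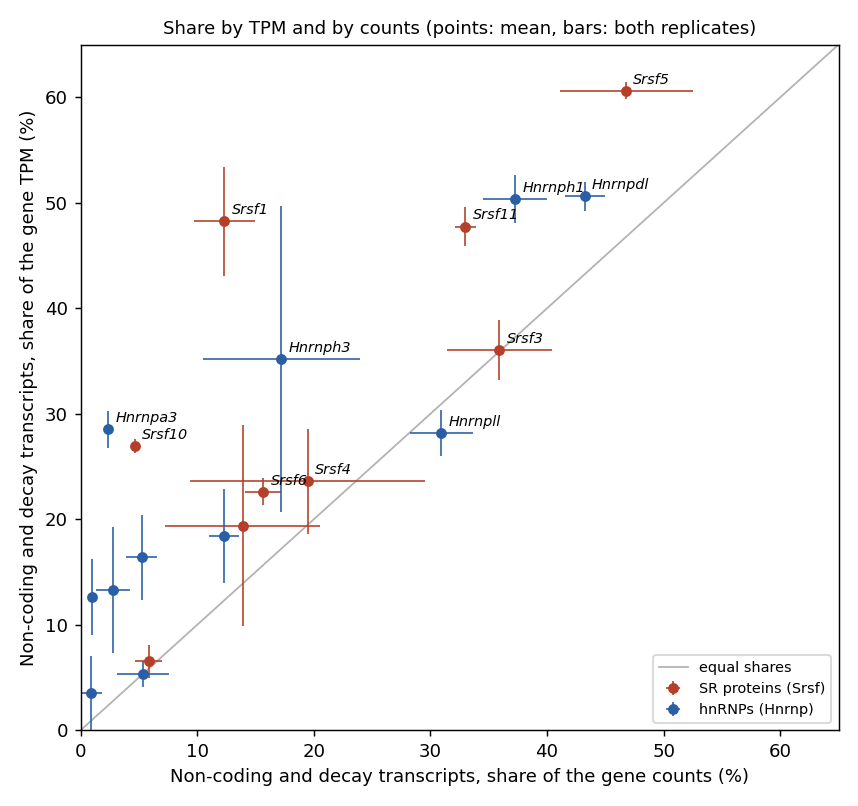
Non-coding and decay transcripts as a share of the gene's TPM (vertical axis, %) against their share of the gene's counts (horizontal axis, %), for 9 SR genes (red) and 11 hnRNP genes (blue), with points at the mean and bars that reach both replicates. Srsf1, Srsf10 and Hnrnpa3 lie far above the line of equal shares, and Srsf3 and Hnrnpll lie near it.

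Members with a wide gap between the scales had short non-coding transcripts. Srsf10 had 27.6% and 26.3% of TPM but 4.81% and 4.44% of counts in processed transcripts, chiefly Srsf10-207 (717 nt) and Srsf10-210 (677 nt). Hnrnpa3 had 26.8% and 30.3% of TPM but 2.10% and 2.62% of counts in 1 transcript of 596 nt, Hnrnpa3-205, which keeps intron 3 of 78 nt. In Srsf3 the scales were close, at 33.2% and 38.9% of TPM and 31.4% and 40.4% of counts. Srsf3-204, with introns 3 and 4 (2150 and 393 nt) kept, is 3986 nt long and had 16.1% and 17.5% of TPM. In Hnrnpll the share was 26.0% and 30.3% of TPM and 28.2% and 33.6% of counts.

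Whole introns were also kept in Srsf6-204 (intron 2, 1283 nt; 10.4% and 14.9% of TPM) and in Srsf2-203 (intron 2, 1059 nt; 6.0% and 4.77%). The share over all non-coding forms was 21.3% and 23.9% in Srsf6 and 8.06% and 4.99% in Srsf2. Srsf9 had 9.87% and 29.0%, and Srsf4 18.6% and 28.6%, of which Srsf4-201, typed as retained intron, gave 2.17% and 18.6%. Srsf4-201 keeps no whole intron of the main coding transcript. Among hnRNPs the share was 14.0% and 22.9% in Hnrnpl, 12.4% and 20.4% in Hnrnpk, 19.3% and 7.32% in Hnrnpm, 9.01% and 16.3% in Hnrnpu and 6.61% and 4.12% in Hnrnpr. Hnrnph3 had 49.7% in replicate 1 and 20.7% in replicate 2, with an SD of 20.5 points, and Hnrnpd 0% and 7.03%. In Srsf9, Hnrnph3, Hnrnpm and Hnrnpd the difference between the libraries was larger than the lower of the 2 values.

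Decay transcripts reached 10% of TPM in both libraries for 1 of the 20 members, Hnrnpdl, against 7.38% of 6925 coding genes, a share near that background. Hnrnpdl had 47.7% of TPM in decay transcripts in replicate 1 and 39.9% in replicate 2 (43.8 ± 5.49%), and 39.2% of counts in the mean. It was almost all Hnrnpdl-201, with 16.1 and 7.90 TPM, above the coding form Hnrnpdl-202 with 12.9 and 7.14 TPM. Hnrnpdl-201 ends translation at the stop codon of the coding transcript and is spliced further downstream, so that its last exon junction lies 126 nt past the stop. Srsf2-202 and Srsf2-204 and 3 Hnrnpd transcripts are built alike, with last junctions 101 to 217 nt past the normal stop, and held at most 1.79% of TPM each in either library.

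The stop-bearing exons printed above gave smaller shares. Srsf6-201 had 10.98% and 8.98% of its gene's TPM in replicates 1 and 2, the most even of the set, and 338 and 340 counts. Srsf11-206 had 14.0% and 6.86%, and with Srsf11-210, which has the same exon, the decay share was 17.0% and 7.67%. Srsf4 had 16.5% and 9.97%, of which Srsf4-203 held 5.47% and 1.23% and Srsf4-204 11% and 8.74%. The stop of Srsf4-204 was not placed in an internal exon that the main coding transcript skips, so its share is not credited to the printed exon. Srsf4-203 rests on 19.0 and 5.57 counts and Srsf4-204 on 47.4 and 49.0.

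Srsf3-201 was the least even. It had 0 estimated counts in replicate 1 and 1032 in replicate 2, where it took 16.3% of Srsf3 TPM. Counting error alone allows up to 3 counts for the 0. That limit leaves out error in how reads were assigned between transcripts that share exons. The interval deposited by the authors, whose level is not stated, ran up to 0.593 TPM in replicate 1 and from 3.34 to 4.41 TPM in replicate 2, so the intervals do not overlap. Srsf3-203, typed as retained intron though it keeps no whole intron of the main coding transcript, had 17.1% in replicate 1 and 4.92% in replicate 2. The whole non-coding share of Srsf3 was closer between the libraries than either of these parts. Hnrnpll-203 had 7.01% and 0.53%.

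Among the other members with decay transcripts, Srsf1 had 3.12% and 2.74%, Srsf2 2.06% and 0.22%, Hnrnpd 0% and 7.03%, and Hnrnph3 0% and 3.34%. Hnrnpl had 0.29% and 0.76% and Hnrnpk 0.04% and 0.25%, and Srsf5 and Hnrnpr were listed at 0 in both libraries. The share counts what remained in the tissue, not what was made, since decay removes these RNAs. For retained-intron transcripts, RNA not yet spliced was not told apart from a kept intron in this total RNA.

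Of 28 members with more than 1 transcript, 26 had the same highest transcript in both libraries, against 80.9% of such coding genes. All 10 SR genes did, and so did 16 of 18 hnRNP genes. The exceptions were Hnrnph3 and Hnrnpr. In Hnrnpr the coding form Hnrnpr-202 led replicate 1 (40.2% and 14.9% in replicates 1 and 2) and Hnrnpr-204 led replicate 2 (26.9% and 44.9%). The highest transcript was not protein-coding in both libraries in 3 of the 28, Srsf1, Srsf5 and Hnrnpdl, against 4.69%.

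The summed absolute difference of a gene's transcript shares, divided by 2, gives the percentage points that moved between libraries. Its median was 15.9 points over SR genes, 16.6 over hnRNP genes and 14.0 over coding genes. More than 20 points, a limit chosen after the data were seen, moved in 0 of 10 SR genes and 6 of 18 hnRNP genes, 6 of 28 in all, against 36.7% of coding genes. In Hnrnph3, with the fewest counts, 48.8 points moved. In Hnrnpa2b1 the coding forms Hnrnpa2b1-201 (1647 nt; 5.34% and 23.4%) and Hnrnpa2b1-202 (1662 nt; 33.3% and 9.16%) changed order. In Hnrnpd a transcript of 483 nt whose type is unknown had 32.6% and 3.87% on 50.4 and 6.31 counts.

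On scaled counts the typical member differed between libraries as much as the typical detected coding gene. The median absolute log2 ratio was 0.157 over members, 0.156 over detected coding genes and 0.204 over coding genes whose mean count was 10 or more. The limit of 10 lies below the counts of every member, so shares of that last set are not at like depth. The log2 ratio of replicate 2 over replicate 1 was beyond 0.5 in 1 of 31 members, Hnrnph3, against 22.3% of 15314 coding genes whose mean count was 10 or more. It was above 0.5 in 1 of 31 members, against 13% of those genes, and below −0.5 in 0 of 31, against 9.29%. Hnrnph3 had 377 counts in replicate 2 and 126 in replicate 1, a log2 ratio of 1.06. Its TPM ratio was 0.24, and its effective length was higher in replicate 2 by 0.32 (log2). The other 30 lay between −0.35 (Hnrnpa1) and 0.24 (Srsf10). The median was −0.03 over SR genes, −0.10 over hnRNP genes and −0.01 over detected coding genes. Of the SR genes 5 were higher in replicate 2 and 6 lower, and of the hnRNP genes 3 were higher and 17 lower. Of the 11725 detected coding genes 5637 were higher and 6088 lower. With spike-in totals as the scale, which shift the median coding gene to 0.10, 17 of 31 members were higher in replicate 2 instead of 8, so the direction is not fixed.

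**Figure D4:**
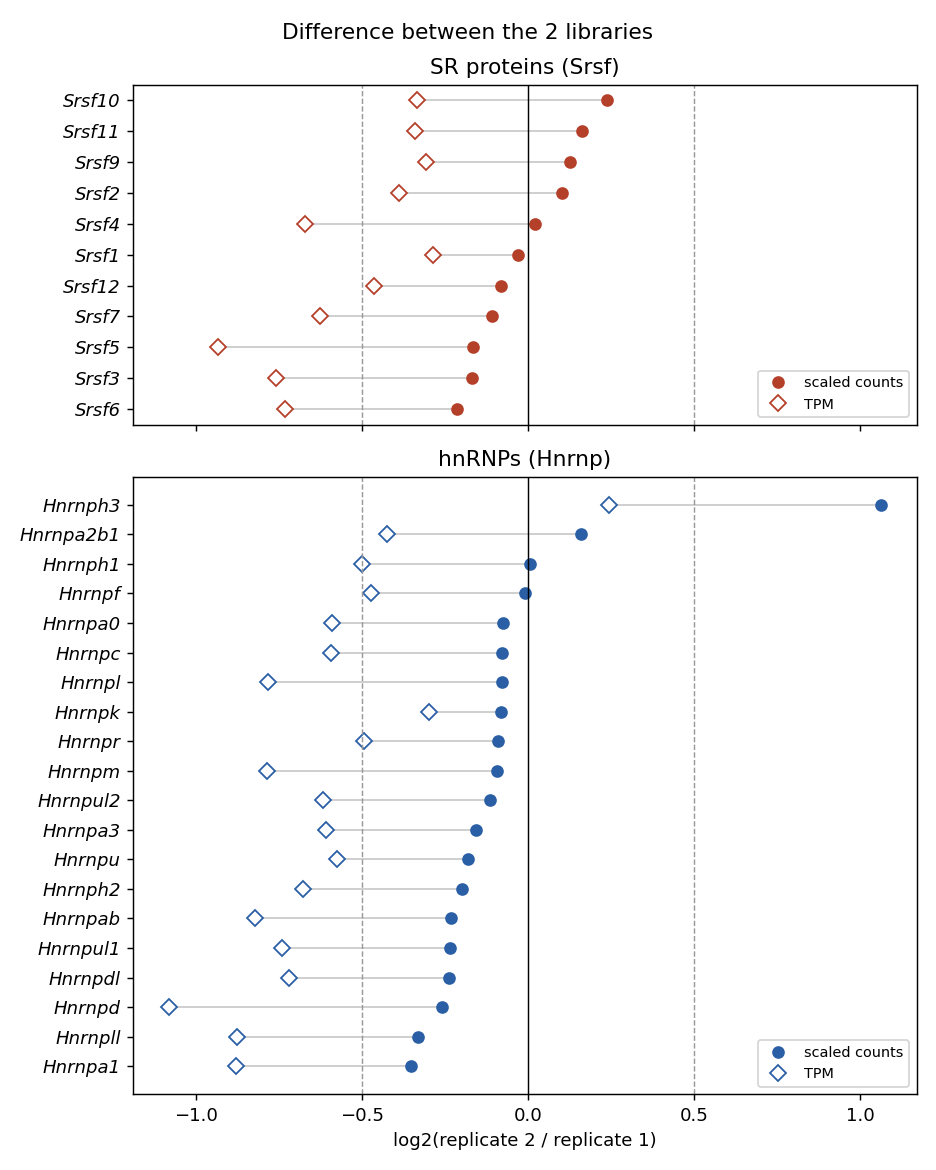
Log2 ratio of replicate 2 over replicate 1 for each SR gene (upper panel) and hnRNP gene (lower panel), with filled circles for scaled counts, open diamonds for TPM and dashed lines at −0.5 and 0.5. By counts only Hnrnph3 passes a dashed line, while the TPM ratios of all other members are below 0.

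The TPM ratio was lower than the count ratio in every member, by unequal amounts. In Hnrnpd it was −1.08 against −0.26 for counts, and the gene's effective length, a mean over its transcripts, was higher in replicate 2 by 0.32 (log2). In Srsf5 it was −0.93 against −0.17, with effective length higher by 0.26. In Hnrnpk it was −0.30 against −0.08, with effective length lower in replicate 2 (−0.29), and in Srsf1 −0.29 against −0.03 (−0.25). TPM divides counts by effective length, so a change in the estimated mix of short and long transcripts enters the TPM ratio by definition.

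Genes that act on or beside the members were mostly expressed. Of 8 kinases and import factors of SR proteins 7 reached 1 TPM in both libraries, against 54.6% of coding genes. Tnpo3, which imports SR proteins into the nucleus, had 22.3 and 14.9 TPM in replicates 1 and 2, and the CLK kinases Clk1 and Clk4 had 16.9 and 11.5 TPM and 16.3 and 11.03 TPM. Srpk3, a muscle kinase, was lowest with 0.490 and 0.410 TPM. In 2 of the 5 with non-coding transcripts these passed 50% in both libraries, against 7.29% of coding genes. The share was 96.7% and 83.8% in Clk1, where it was also 97.6% and 88.5% of counts, and 57.99% and 59.7% in Clk4. Clk2, Clk4 and Tnpo3, 3 of the 5, passed 10% for decay transcripts in both, against 7.38%.

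All 12 other proteins with arginine and serine domains reached 1 TPM, against 54.6% of coding genes. Son, a core protein of nuclear speckles, had 72.2 and 46.4 TPM, U2af2, which binds the polypyrimidine tract, 41.1 and 28.6 TPM, and Srrm2 35.8 and 27.1 TPM. Pnn was lowest with 3.25 and 2.13 TPM. Of 5 with non-coding transcripts 1 passed 50%, Acin1, against 7.29% of coding genes, and 0 passed 10% for decay, against 7.38%. All 10 hnRNP proteins with other names also reached 1 TPM, against the same 54.6%. They were led by Ybx1 (134 and 72.0 TPM), Cirbp (73.2 and 49.3 TPM) and Raly (55.7 and 34.5 TPM). Of 8 with non-coding transcripts 2 passed 10% for decay, Khdrbs1 and Rbmx, against 7.38% of coding genes.

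Of 10 factors of nonsense-mediated decay 9 reached 1 TPM, against 54.6% of coding genes. Smg5 had 22.2 and 18.8 TPM and Upf1, the central helicase, 11.1 and 8.96 TPM. Upf2 was lowest with 0.980 and 1.18 TPM. Of 6 with non-coding transcripts 1 passed 10% for decay, against 7.38% of coding genes. It was Smg6, the endonuclease of the pathway, with 18.2% and 41.9%.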

How the data were processed

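Total RNA-seq of newborn hindbrain was analysed from 2 libraries of 1 group. Per the deposited file notes, tables per gene and per transcript were made on build mm10 with GENCODE M4, and no source used here names the aligner or the quantifier. The authors deposited expected counts, which are estimates and need not be whole, and TPM, per the file headers. A deposited percent per transcript states how much of the TPM of a gene it holds. Interval bounds on other scales were deposited by the authors too. GENCODE M21 gave symbols, types, exons and sequences, and 1 of 212 member transcripts had no match.

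Members and gene lists were chosen with earlier results of these data known. Non-coding means every type other than protein-coding. Genes were called detected at 1 TPM or more in both libraries, and shares were taken over genes with such transcripts. Expected counts were rounded and scaled by TMM in edgeR 4.0.16 (R 4.3.3, prior count 2), with DESeq2 1.42.0 size factors, totals and spike-ins as alternatives. Near-identical copies (200 nt or more at 95% identity) were found with minimap2 2.31 among transcripts outside the member's own locus. They existed for 9 members and held over 1% of the member's counts for 1 of them, Hnrnpk. Introns and stop-bearing exons were read against the coding transcript of each gene with the most counts over both libraries. Whether counting used strand is not stated, so 11 members that overlap a gene on the opposite strand (3 SR, 8 hnRNP) are uncertain. Counts were whole within 0.005 in both libraries for 20 of 31 members. The text names every member, with values per library for extremes of each subfamily and for members past a limit, and the 3 highest and the lowest of each other list, of which some are not reported here. Depth was 54313140 and 77142270 counts.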

Additional observations from a re-analysis of the deposited data

How the results depend on the processing

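No paired analysis was possible because the series has 1 group. Counts of detected members stayed at 31 in all settings but a minimum of 5 TPM (28). The SR minus hnRNP level difference (0.52) lay between 0.43 and 0.61 in each library alone and at 0.22 with protein-coding transcripts only; the cause was not tested. The 5 highest members held 31.8% of the members' counts instead of 41.5% of TPM. The SR minus hnRNP difference in median non-coding share (8.30 points) was 8.07 by counts, 8.65 from posterior means, 6.68 with transcripts of at least 500 nt, 4.92 with the unmatched transcript as non-coding and 13.0 at a minimum of 5 TPM, and 8.24 and 8.35 in single libraries. Settings added after seeing the data gave 19.8 points over summed TPM, 11.2 over summed counts and 8.03 without Srsf5 and Hnrnpdl. Members at 50% or more (1) numbered 0 by counts, 5 at a limit of 40%, 0 at 60%, and 2 to 3 in single libraries. Members at 10% decay or more (1) numbered 2 from posterior means, 4 at a limit of 5%, and 2 to 4 in single libraries. Members past a log2 ratio of 0.5 (1) numbered 3 at 0.3 and 1 under every other scaling run. The non-coding share moved by more than the spread between libraries in 11 of 20 members by counts and in 1 of 20 each under posterior means and under transcripts of at least 500 nt.

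Both libraries form the only replicates, and counting depth limits mainly Hnrnph3 (126 and 377 counts) and rare transcripts such as Srsf4-203. Shares of TPM in short transcripts come from counts divided by a small effective length. In some the counts were few, as in Srsf10-208 (5 and 1), while Srsf1-203 had 969 and 2229 and Srsf5-211 had 737 and 745. How reads were assigned between transcripts that share exons is the authors' estimate, and its error is outside the SD.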
